A study of Mus musculus with 5 samples.

Results

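The list described here holds the chromatin regions called for H3K27me3, trimethylation of lysine 27 of histone H3, over input in neuronal nuclei of the mouse striatum. All lines of that list were taken. Its 11802 lines fell on 8219 distinct regions, out of 38941 regions in the lists of all 4 antibodies, and named 9471 gene symbols. The nuclei came from the striatum of 8-week-old C57BL/6 mice and were labelled as medium spiny neurons, the GABAergic projection neurons of that structure. The labels name no transgene or treatment and do not say how many animals were pooled. Chromatin was immunoprecipitated with antibodies against H3K27me3, H3K4me3, H3K27ac and RNA polymerase II (Pol II) and sequenced, with 1 library per antibody and 1 input library. No comparison therefore has replicates and no test across samples could be made. The lists name regions near the starts of annotated transcripts and give each a score over input, set by the authors on a scale that the sources used here do not give. Read depth is unknown from these files. Positions of regions are mm9, counted from 1.

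H3K27me3 is written by Polycomb repressive complex PRC2, whose catalytic subunit is Ezh2 or its paralogue Ezh1, and is bound by Cbx proteins of the complex PRC1. It spreads over broad domains and is known for holding developmental regulators silent in cells of other lineages. Promoters rich in CpG dinucleotides are its common landing sites in mammals. Where H3K27me3 and the promoter mark H3K4me3 lie on the same promoter the state is called bivalent. In a bulk population, marks on the same nuclei and marks on different nuclei cannot be told apart, nor can fewer marked nuclei and less mark per nucleus.

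The promoters of 6 genes show the range of sequence under the highest-scoring regions. They belong to the 3 highest-scoring regions that overlap H3K4me3 and the 3 highest-scoring ones that do not, among those with a usable promoter entry. Sequences are RefSeq's, build GRCm38.p6, from 250 bases before to 50 after the transcript start, written 5′ to 3′ on the strand of the gene, with each CpG in capitals. Foxe1, whose region was the third by score, is named only, and the next region gave Mthfsd, which shares its region with Foxc2 and Foxl1. The first 3 sequences come from regions with H3K4me3.
Nkx2-4, chr2:147085296-147085595, minus strand: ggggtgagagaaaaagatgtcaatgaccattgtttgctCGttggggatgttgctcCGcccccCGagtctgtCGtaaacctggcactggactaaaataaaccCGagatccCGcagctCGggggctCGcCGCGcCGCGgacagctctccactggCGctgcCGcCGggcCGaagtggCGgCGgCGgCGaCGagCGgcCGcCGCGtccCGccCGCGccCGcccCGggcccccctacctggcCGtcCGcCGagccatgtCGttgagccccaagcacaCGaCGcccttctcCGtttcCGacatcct
Foxc1, chr13:31806396-31806695, plus strand: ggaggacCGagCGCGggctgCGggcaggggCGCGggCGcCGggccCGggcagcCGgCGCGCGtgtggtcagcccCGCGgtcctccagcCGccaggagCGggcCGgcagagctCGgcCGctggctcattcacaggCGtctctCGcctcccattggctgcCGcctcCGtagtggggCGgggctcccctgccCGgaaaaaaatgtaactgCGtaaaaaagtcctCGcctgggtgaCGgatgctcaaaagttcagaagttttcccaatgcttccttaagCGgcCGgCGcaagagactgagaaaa
Mthfsd, chr8:121108288-121108587, minus strand: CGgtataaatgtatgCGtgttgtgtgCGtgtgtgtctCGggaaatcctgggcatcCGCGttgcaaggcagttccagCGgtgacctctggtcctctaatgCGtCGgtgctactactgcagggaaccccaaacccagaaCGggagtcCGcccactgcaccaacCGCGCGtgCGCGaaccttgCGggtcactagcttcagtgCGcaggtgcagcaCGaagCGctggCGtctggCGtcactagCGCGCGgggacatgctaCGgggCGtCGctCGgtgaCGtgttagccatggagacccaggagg
The other 3 come from regions without H3K4me3.
Fcgr1, chr3:96293920-96294219, minus strand: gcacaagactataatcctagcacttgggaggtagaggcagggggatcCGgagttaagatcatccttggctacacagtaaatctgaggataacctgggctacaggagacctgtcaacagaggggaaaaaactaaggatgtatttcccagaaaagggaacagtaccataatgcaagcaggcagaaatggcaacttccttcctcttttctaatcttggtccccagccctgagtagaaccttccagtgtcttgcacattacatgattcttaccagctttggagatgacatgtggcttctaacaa
Runx3, chr4:135120395-135120694, plus strand: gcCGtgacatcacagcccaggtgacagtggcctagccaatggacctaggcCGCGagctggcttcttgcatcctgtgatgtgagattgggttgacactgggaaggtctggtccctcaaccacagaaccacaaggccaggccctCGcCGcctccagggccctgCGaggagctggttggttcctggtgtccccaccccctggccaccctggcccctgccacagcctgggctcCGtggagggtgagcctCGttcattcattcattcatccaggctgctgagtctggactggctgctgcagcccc
Jph2, chr2:163397944-163398243, minus strand: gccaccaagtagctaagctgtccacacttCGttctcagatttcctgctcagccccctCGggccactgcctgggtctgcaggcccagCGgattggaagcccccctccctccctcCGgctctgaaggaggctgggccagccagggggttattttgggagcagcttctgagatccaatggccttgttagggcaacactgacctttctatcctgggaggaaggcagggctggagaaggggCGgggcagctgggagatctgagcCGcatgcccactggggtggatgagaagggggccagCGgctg
The 3 promoters with H3K4me3 held 38 CpG in Nkx2-4, 32 in Foxc1 and 30 in Mthfsd. Mthfsd lies at the edge of its domain and had H3K27ac and Pol II, while Foxc2 and Foxl1 had no H3K27ac. Those without it held 1 CpG in Fcgr1, 8 in Runx3 and 7 in Jph2. The ratio of observed CpG to the number expected from base composition was 1.10, 0.943 and 1.04 in the first set and 0.063, 0.264 and 0.237 in the second. Runx3 and Jph2 each had 2 entries, and the second entry of Runx3 held 45 CpG with a ratio of 1.01, so the low value belongs to the first start only. Nkx2-4 encodes a homeodomain factor, Foxc1 a forkhead factor of mesenchyme and eye, Fcgr1 an Fc receptor of myeloid cells, Runx3 a Runt factor of lymphocytes and sensory neurons, and Jph2 a junctophilin of heart muscle.

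A set of microRNAs from the list is shown for the contrast between domains with and without H3K4me3, chosen after their values were seen. The miR-10 and miR-196 genes lie in the Hox clusters under the highest scores, and the miR-200a, miR-200b and miR-429 genes form an epithelial cluster under a region without H3K4me3. Mature sequences are RefSeq's, build GRCm38.p6, with the seed (bases 2 to 8) in capitals.
mmu-miR-10a-5p: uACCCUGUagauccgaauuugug
mmu-miR-10b-5p: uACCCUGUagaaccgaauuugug
mmu-miR-196a-5p: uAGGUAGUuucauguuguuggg
mmu-miR-196b-5p: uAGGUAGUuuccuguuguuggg
mmu-miR-200a-3p: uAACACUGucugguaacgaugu
mmu-miR-200b-3p: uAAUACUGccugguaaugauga
mmu-miR-429-3p: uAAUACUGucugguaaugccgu
The pair of miR-10 sequences shares 1 seed, the miR-196 pair another, and miR-200b and miR-429 a further seed that miR-200a does not have.

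H3K27me3 lay in broad domains of very unequal size. Region width ran from 2.5 kb to 936.8 kb with a median of 12.4 kb and quartiles of 6.5 and 27.4 kb. Quartiles were 5.6 and 8.1 kb for H3K4me3, 4.9 and 5.9 kb for H3K27ac, and 4.6 and 5.3 kb for Pol II. The plot of region widths shows that the 4 lists began at similar widths and that only H3K27me3 kept a long upper tail. Its 309 regions over 100 kb (3.76% of the list) held 53.3 Mb, 26.0% of all H3K27me3 sequence. H3K4me3 had 4 such regions, H3K27ac 0 and Pol II 3. At the other end, the 1292 regions up to 5 kb were 15.7% of the list and 2.60% of its length.

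**Figure D1:**
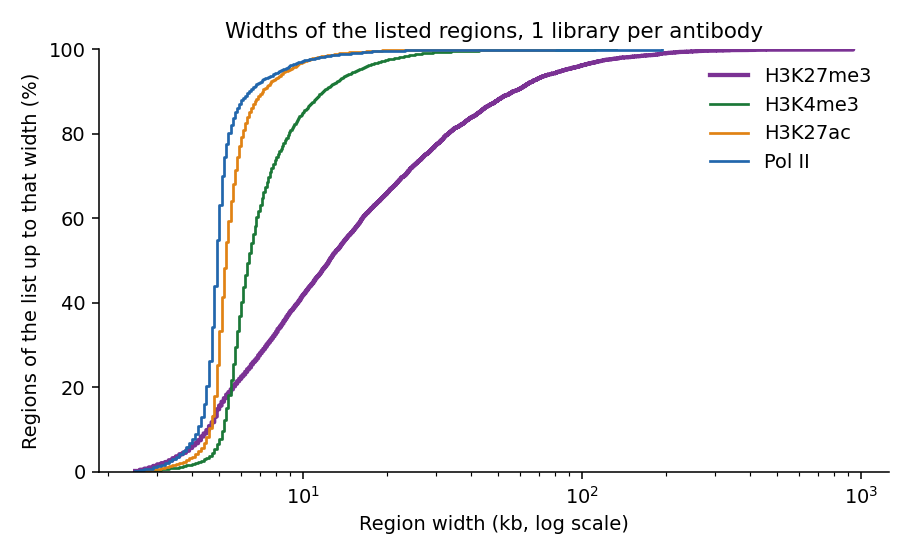
Cumulative share of regions (%) against region width (kb, log scale) for the 4 lists, 1 library per antibody. The H3K27me3 curve has its median at 12.4 kb and reaches 936.8 kb, to the right of the other 3.

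Scores ran from 2.0002 to 16.2 with a median of 3.24, and most of the list lay near its floor. Scores under 2.5 made up 23.5% of regions, and only 273 regions (3.32%) scored 10 or more. Higher-scoring regions were wider, with a Spearman correlation of 0.785 across the 8219 regions, given as a description because both values come from the same library. Median width rose from 4.1 kb in the lowest decile of scores to 52.4 kb in the highest.

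The genes at the top of the list were regulators of other tissues and other brain regions. The region of Nkx2-4 (chr2:146902801-146943000) scored 16.2 over 40.2 kb. Foxc1 (chr13:31786501-31927700) scored 14.9 over 141.2 kb, and Foxe1 (chr4:46335601-46387200), a thyroid and palate factor, scored 14.6 over 51.6 kb. Foxc2 and Foxl1 shared 210.9 kb with Mthfsd at 14.5. Foxf1, a factor of lung and gut mesenchyme, scored 14.5 over 339.6 kb. Score and width did not rank these genes alike, since Nkx2-4, first by score, was only 1315th by width.

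Regions ranked 6 to 30 included further genes of this kind. Among them were Wt1 of kidney and gonad (14.4, 234.5 kb), Gata4 of heart and gut (14.3, 337.4 kb, with Blk and 4 further genes), Tfap2c of trophoblast (14.2, 246.0 kb) and Foxl2 of the ovary (13.9). Factors of other neurons were also present. Hmx1 scored 13.8, Skor2 of cerebellar Purkinje cells 13.7, Prdm13 of dorsal spinal cord 13.6, Pou4f2 of retinal ganglion cells 13.5 and Neurog1 of sensory progenitors 13.3. Slc6a5, the glycine transporter of inhibitory hindbrain neurons, scored 13.2 and was alone in its region. All of the first 30 regions were wider than 20 kb, with a median of 131 kb.

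The 4 Hox clusters, which pattern the body axis, lay whole under 4 regions. The Hoxc region (chr15:102683701-102959300) scored 14.1 over 275.6 kb, the Hoxd region 13.9 over 167.1 kb, the Hoxa region 13.8 over 260.6 kb and the Hoxb region 13.3 over 384.3 kb. Together they listed 39 of 39 Hox genes, with Evx1 beside Hoxa and Evx2 beside Hoxd. All 39 also had H3K4me3, and none had H3K27ac or Pol II. The shares of all genes with H3K27me3 were 57.0% for H3K4me3, 24.4% for H3K27ac and 15.1% for Pol II. The Hoxc H3K4me3 region alone was 111.3 kb wide.

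Families of developmental transcription factors were listed almost whole. Over all 21031 protein-coding genes, 42.5% had an H3K27me3 region, and the median of the 8929 listed genes was a score of 3.59 and a width of 15.9 kb. Against that background, the list held 12 of 12 Lhx, Lmx and Isl genes (median score 11.4, median width 64.8 kb), 9 of 9 Pax genes (11.3, 167.6 kb), 6 of 6 sine oculis homeobox genes (10.7, 108.1 kb) and 6 of 6 Gata genes (11.4, 56.7 kb). It also held 5 of 5 Zic genes (12.2, 98.1 kb), 13 of 14 Nkx genes (11.7, 70.4 kb), 15 of 17 T-box genes (11.9, 60.8 kb) and 24 of 26 proneural and related bHLH genes (9.92, 28.9 kb). All 6 Irx genes lay under regions over 100 kb, a width that 2.66% of coding genes reached. These families were chosen with earlier results of these data known, and their counts are descriptions.

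Within these families, several members listed with H3K27ac and Pol II had low H3K27me3 scores or no region. Dlx5 and Dlx6, factors of forebrain GABAergic neurons, had no H3K27me3 region, while Dlx1 and Dlx2 shared 44.7 kb at 7.40 and Dlx3 and Dlx4 192.8 kb at 10.999. Isl1, a factor of the direct pathway, was the lowest of its family at 6.64, against 10.1 to 12.8 for the other 11. Six3, with both active marks, scored 4.29, against 8.50 to 13.3 for 4 other members of its family. Six5 went against this pattern, with a score of 2.13 and neither H3K27ac nor Pol II. Forkhead genes split, with 30 of 44 listed. Foxc1, Foxe1, Foxl1, Foxc2, Foxf1 and Foxl2 led, and the broadly expressed Foxo1, Foxo3, Foxj2, Foxj3 and Foxk2 had none. Of 19 Sox genes 13 were listed, led by Sox17 (12.4) and Sox14 (12.2), and Sox4, Sox8, Sox11 and Sox12 were not.

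**Figure D2:**
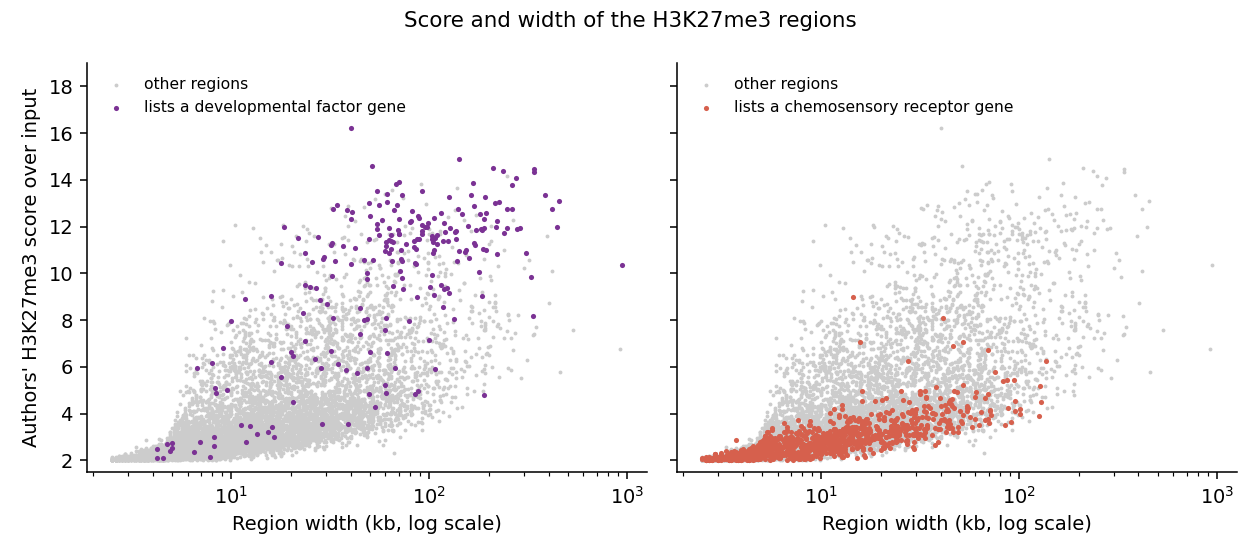
Authors' score against region width (kb, log scale) for the 8219 H3K27me3 regions, 1 point per region. On the left, 234 regions that list a gene of 16 developmental factor lists are coloured and crowd the upper right, and on the right 1047 regions that list a chemosensory receptor gene are coloured and crowd the floor.

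Counted by region, developmental factors filled the top of the list. The 16 factor lists together held 316 genes, 280 of them with H3K27me3 (88.6%). Their regions were 71 of the 100 highest-scoring, 151 of the 300 highest-scoring and 183 of 822 in the highest decile (22.3%). In the lowest 7 deciles each decile held between 0 and 5 such regions.

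Signalling genes of the embryo were listed more often than the 42.5% of all coding genes, with lower median scores than most families of factors. Wnt ligands were listed for 17 of 19 genes with a median score of 7.42, led by Wnt8b (10.1), and Wnt2 and Wnt4 were the 2 without. Bmp and Gdf ligands were listed for 16 of 21 (6.72), led by Gdf6 (10.7), Gdf7 (10.6) and Bmp8b (9.94). Fgf ligands were listed for 16 of 22 (6.20). Fgf8 scored 9.02, and Fgf3, Fgf4 and Fgf15 shared 1 region at 8.90, while Fgf12, Fgf13 and Fgf14, which act inside neurons, had none. Of 8 Hedgehog and Notch ligands 5 were listed (interval 24.5 to 91.5%, which includes the background). Ihh scored 10.4, Dll4 8.08, Dhh 8.05 and Shh 7.16, and Shh also had H3K27ac and Pol II.

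The widest domains were a partly different set from the highest-scoring. The first covered 936.8 kb of chromosome 1 (chr1:191500001-192436800) with Prox1, Smyd2, Ptpn14 and Cenpf at a score of 10.3. The next covered 915.4 kb with the kainate receptor gene Grik3, Csf3r, Zc3h12a and Mrps15 at 6.75. Crystallin genes Crybb2 and Crybb3 lay with Sez6l, Myo18b and Grk3 under 530.2 kb at 7.57. Tshz2 (454.8 kb, 5.78) and Ebf3 (453.3 kb, 13.1) each had a region alone. The gap junction genes Gja3, Gjb2 and Gjb6 shared 394.4 kb at 11.6. Among the 309 regions over 100 kb, 176 (57.0%) listed a single gene.

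Many listed regions lay close to their neighbours, so the number and width of domains depended on where runs were split. The gap to the next region on the same chromosome was 1 kb or less in 603 cases and 10 kb or less in 1844 (22.5%), against a median of 65.3 kb. Tshz3 was listed under 2 regions of 403.1 and 336.8 kb that lay 600 bp apart. Irx3 and Irx5, 439.7 and 415.0 kb, lay 1900 bp apart, and Olig2 (103.4 kb) and Olig1 (116.8 kb) 2700 bp apart. Joining regions within 10 kb gave 856.6 kb over Irx3 and Irx5, 740.5 kb over Tshz3 and 596.7 kb over Foxf1, Foxc2, Foxl1, Mthfsd and Irf8. The number of domains over 100 kb then went from 309 to 438, while the total fell from 8219 to 6375.

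Most regions reached 1 gene. A single symbol was listed for 6813 regions (82.9%), 2 symbols for 1054 (12.8%), and 5 or more for 59. Of the 1393 regions with several symbols, 447 (32.1%) held genes whose symbols begin with the same 3 or 4 letters. MicroRNA symbols, among others, were left out of that count. Beyond the Hox clusters, the 447 regions included kallikrein protease genes such as Klk4, Klk5 and Klk15 in 185.4 kb (6.43). Outside that count, the embryonic miR-290 to miR-295 cluster shared 18.5 kb (5.85). Chat and Slc18a3, the paired genes of acetylcholine synthesis and vesicular storage, shared 46.8 kb at 12.8. Conversely, 705 genes were listed under 2 regions, 22 under 3 and 3 under 4, the last being Mir684-1, Rreb1 and Septin9.

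A second large group of H3K27me3 genes, the chemosensory receptors, lay near the floor of the list. Olfactory receptors were listed for 832 of 1104 genes (75.4%, interval 72.7 to 77.9%), vomeronasal receptors for 204 of 355 (57.5%) and taste and trace amine receptors for 46 of 53 (86.8%), against 42.5% of all coding genes. Their median scores were 2.89, 2.78 and 2.67, under the 3.59 of all listed genes, with median widths of 12.3, 11.4 and 11.2 kb. The highest were Olfr94, Olfr95 and Olfr96, which shared 41.3 kb with Ubd at 8.07, and Vmn1r90 at 8.98. Only 90 of the 832 olfactory receptor genes had H3K4me3, against 57.0% of all genes with H3K27me3. Their calls rest on the low scores of the list. In the upper 50% of regions by score, 293 olfactory genes remained, 1.51 percentage points above the background of 25%. Vomeronasal receptors then stood at -9.82 points and taste and trace amine receptors at -15.6 points from it. By region, 21.3% of the lowest decile listed a chemosensory receptor and 0.243% of the highest.

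Genes of skin, liver and immunity lay between these groups. Cytochrome P450 genes were listed for 78 of 92 (84.8%) with a median score of 3.77. The highest of them were Cyp24a1 (12.3, 264.4 kb), Cyp26b1 (10.5), Cyp1b1 (9.94, 96.2 kb) and Cyp26a1 with Cyp26c1 (8.61). Of these, Cyp24a1 is a vitamin D enzyme and the Cyp26 genes encode retinoic acid enzymes. The brain cholesterol hydroxylase Cyp46a1 had no region. Keratins were listed for 76 of 101 (3.55), led by Krt8 and Krt18 at 8.80, the keratins of simple epithelia. Interleukins were listed for 26 of 33 (3.50), chemokines and their receptors for 37 of 53 (3.50) and defensins for 40 of 70 (3.26). Collagens were listed for 32 of 44 with a higher median of 5.06, led by Col26a1 (10.04), Col8a2 (9.11) and the cartilage collagen Col2a1 (8.54). In the plot by gene list, the lists with a share above the background ran from a median score of 13.8 for Hox genes to 2.67 for taste and trace amine receptors.

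**Figure D3:**
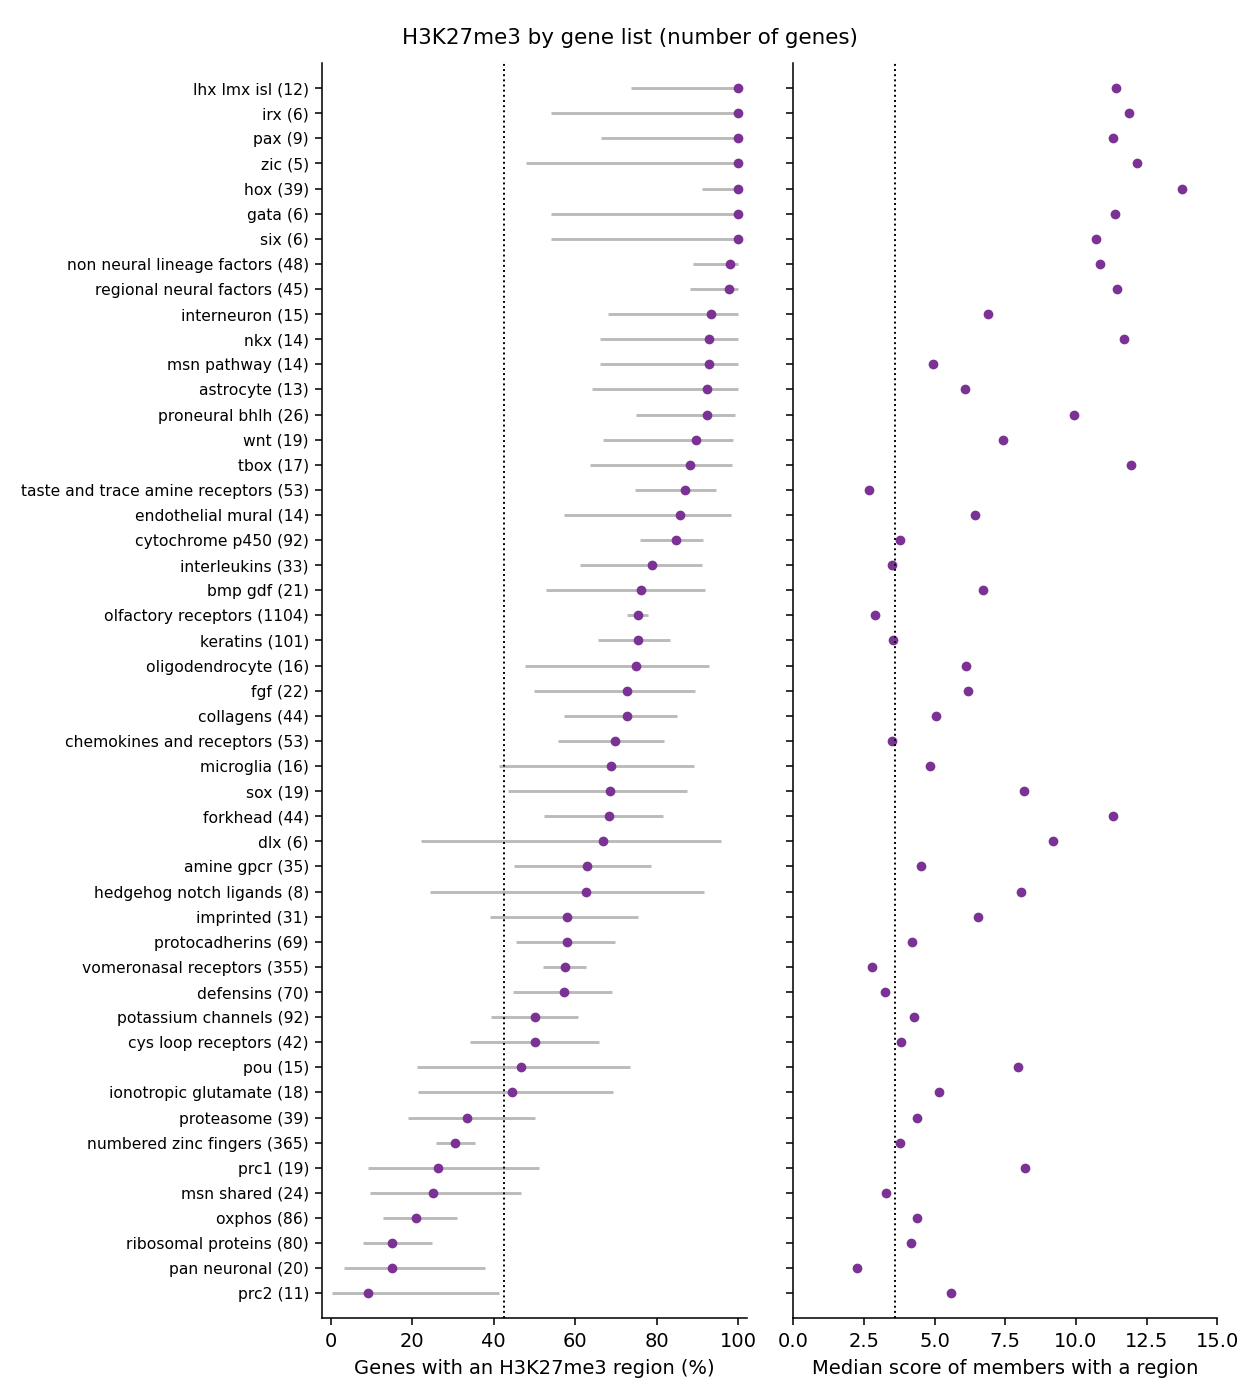
Share of protein-coding genes with an H3K27me3 region (%, bars are exact 95% intervals) and median score of the listed members, for each gene list of 5 or more genes, with the number of genes in brackets. Dotted lines mark all coding genes, 42.5% and 3.59, and chemosensory lists lie right of the first line and left of the second.

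H3K4me3 lay under H3K27me3 regions in proportion to score. Of all H3K27me3 regions 52.3% (4295, interval 51.2 to 53.3%) overlapped an H3K4me3 region by at least 1 bp. Intervals are exact Clopper-Pearson 95% intervals and cover counting error only. By deciles of score from the lowest to the highest, the share was 28.6, 32.1, 35.6, 39.3, 42.8, 46.0, 52.6, 63.1, 85.3 and 97.1%. It climbed slowly over the lower deciles and steeply over the last 3. At a given width the share also differed by score. Among regions scoring 5 or more, the share was 93.8% at 5 to 10 kb, 89.6% at 10 to 20 kb and 90.1% over 100 kb. Among regions scoring under 3 it was 33.4% at 5 to 10 kb and 42.6% at 20 to 50 kb.

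The H3K4me3 regions found on strong H3K27me3 domains were themselves weak. Of the 1054 H3K4me3 regions that overlapped the highest decile, 151 (14.3%) belonged to the upper 50% of the H3K4me3 list by score, against 33.8% of the 234 that overlapped the lowest decile. With every list limited to its upper 50%, which also redraws the H3K27me3 deciles, the overlap was 15.97% of regions, and the gap between the highest and lowest decile was 8.02 percentage points in place of 68.5. Requiring that at least 0.5 of the narrower region be shared lowered the overlap to 37.4% and widened the gap to 81.9 points.

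**Figure D4:**
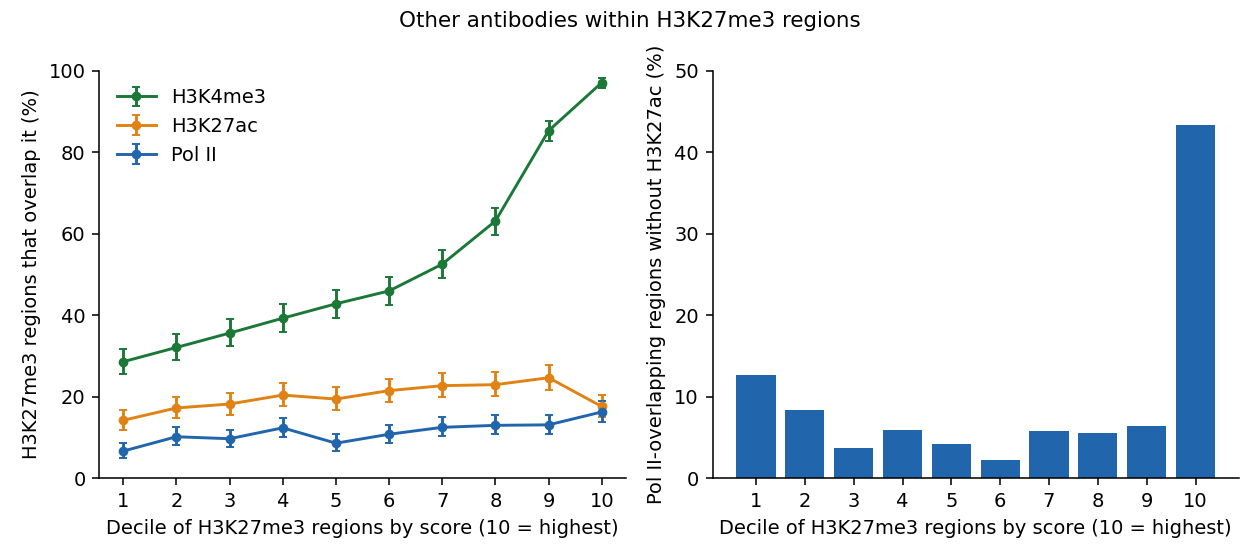
Left, share of H3K27me3 regions that overlap H3K4me3, H3K27ac or Pol II (%, bars are exact 95% intervals) by decile of H3K27me3 score, where only H3K4me3 climbs to 97.1%. Right, share of Pol II-overlapping regions that lack H3K27ac (%), 43.3% in the highest decile and at most 12.7% in the others.

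Pol II without H3K27ac was most frequent on the highest-scoring domains. Over the whole list 19.9% of regions overlapped H3K27ac and 11.4% Pol II. H3K27ac was found on 14.3% of regions in the lowest decile (interval 11.9 to 16.8%), 24.7% in the ninth (21.8 to 27.8%) and 17.6% in the highest. Pol II went from 6.70% in the lowest decile to 16.3% in the highest. In the highest decile, 58 of 134 regions with Pol II lacked H3K27ac (43.3%, interval 34.8 to 52.1%), against 47 of 799 in the other deciles (5.88%, 4.35 to 7.75%). Of those 58 regions 42 (72.4%) listed a gene of the developmental factor lists. With the H3K27ac list cut to 7799 regions, the length of the Pol II list, the shares were 50.7% in the highest decile and 20.7% in the others. The same 134 and 799 regions were counted there, with fewer H3K27ac regions left to overlap them. With the upper 50% of every list the shares were 37.9% of only 29 regions and 32.0%. These settings were chosen after the data were seen.

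The named regions show where each mark sat. Foxd3, a neural crest factor, Gfi1, Tbx18, Six2 of the kidney, Slc6a5, Ebf3 and Eomes of cortical progenitors were each alone in a domain scoring 13.0 to 13.5, with a Pol II region wholly inside and no H3K27ac. The first 10 domains that did overlap H3K27ac were arranged otherwise. Each listed several genes, and in all 10 the H3K27ac region crossed the edge of the domain and was listed for a neighbour of the developmental gene. The pairs were Mthfsd beside Foxc2 and Foxl1, Faim beside Foxl2, Bub3 beside Hmx2 and Hmx3, Ier3ip1 beside Skor2, Aatf beside Lhx1 and Etfa beside Isl2. The others were Ap5b1 beside Ovol1, Cox6b1 beside Etv2, Tcf3 beside Onecut3, and Npm1 beside Tlx3. Foxc2, Foxl1, Foxl2, Hmx2, Hmx3, Skor2, Lhx1, Isl2, Ovol1, Etv2, Onecut3 and Tlx3 had no H3K27ac of their own.

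Over the whole list, H3K27ac and Pol II regions crossed an edge more often than they lay inside. Whether they belonged to a neighbouring gene was not counted there. Of the 145 domains with H3K27ac in the highest decile, 50 listed 1 gene and 45 held an H3K27ac region wholly inside. An H3K4me3 region lay wholly inside the H3K27me3 region in 48.9% of 4832 overlapping pairs, an H3K27ac region in 18.3% of 1698 and a Pol II region in 14.7% of 955. H3K27ac regions crossed an edge in 80.04% of pairs and Pol II in 84.7%, and in 33.8% and 40.3% of pairs that overlap was 1 kb or less. In the highest decile, Pol II regions lay inside in 53 of the 58 domains without H3K27ac (91.4%) and in 20 of the 76 with it (26.3%). The share of domains with H3K27ac was 19.9% by the 1 bp rule and 7.26% when 0.5 of the narrower region had to be shared. By gene, 23 of the 280 developmental factor genes with H3K27me3 had H3K27ac (8.21%), against 24.4% of all 8929 genes with H3K27me3. For Pol II the shares were 23.2% and 15.1%.

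**Figure D5:**
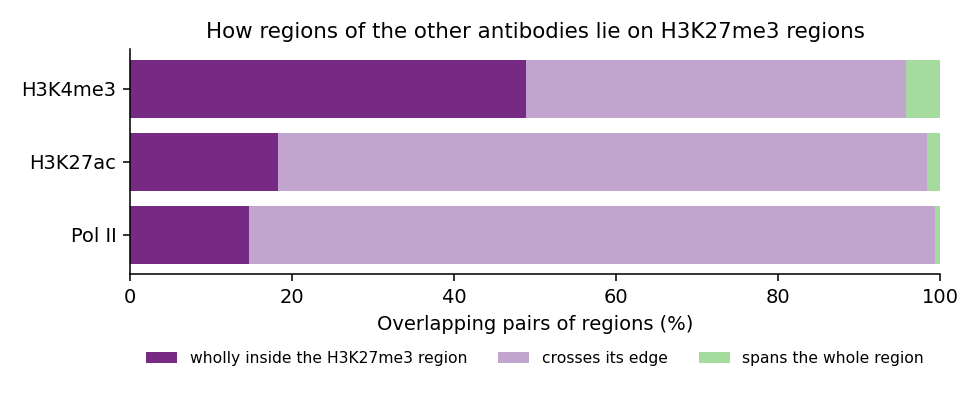
Share of overlapping pairs (%) in which a region of H3K4me3, H3K27ac or Pol II lies wholly inside the H3K27me3 region, crosses its edge, or spans it. H3K4me3 is inside in 48.9% of pairs, and H3K27ac and Pol II cross an edge in 80.04% and 84.7%.

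Domains that overlapped no listed region of another antibody were the largest class, 3914 regions (47.6%). Their median score was 2.80 and their median width 9.8 kb. All lists hold regions near transcript starts only, so marks elsewhere in a domain were not counted. Only 10 of the regions that lacked H3K4me3 had H3K27ac or Pol II. A few domains without H3K4me3 were strong. After Fcgr1 (12.2), Runx3 (11.4) and Jph2 (10.4), whose promoters are shown above, came Acacb, an acetyl-CoA carboxylase gene (9.56), Scrg1 (8.89), Fam107a (8.72) and Gpr132 (8.70). The widest were those of the potassium channel gene Kcnj15 (311.0 kb, 6.29), Adtrp (269.3 kb), D6Ertd474e (248.5 kb), Cpn2 (198.3 kb) and the cartilage gene Matn1 (191.6 kb). By region, 22.2% of those without H3K4me3 listed a chemosensory receptor, against 4.07% of those with it.

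Promoters of genes with H3K27me3 but no H3K4me3 were poor in CpG. Of 3838 such genes 81.0% had a RefSeq promoter entry, and their median ratio of observed to expected CpG was 0.174, with quartiles of 0.0871 and 0.289. A ratio of 0.6 or more was found in 3.31% of them. Genes with H3K4me3 and no H3K27me3 had a median of 0.796, with 78.1% at 0.6 or more. Genes with neither mark had a median of 0.208 and 10.6%, close to the first group. For genes with both marks fewer than 80% had an entry, so that the check was void and no value is given.

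The lists of cell type markers bore on the label. Pan-neuronal genes were listed for 3 of 20 (interval 3.21 to 37.9%), against 42.5% of coding genes. Genes shared by medium spiny neurons were listed for 6 of 24 (interval 9.77 to 46.7%, which includes the background). Of the 3 pan-neuronal genes with a region, Elavl4 scored 6.18 over 63.1 kb, Grin1 2.25 and Nefl 2.15. Rbfox3, Snap25, Camk2a and Gria2 had none, nor had Ppp1r1b, Adcy5, Pde10a, Rasd2, Gad1 and Camk4, which all had H3K27ac and Pol II. Markers of other cells were listed more often than the background, astrocyte genes for 12 of 13 and endothelial and mural genes for 12 of 14. Oligodendrocyte genes were listed for 12 of 16 and microglial genes for 11 of 16 (interval 41.3 to 89.0%, which includes the background). Their median scores were, in that order, 6.07, 6.42, 6.12 and 4.84. Flt1 of endothelium scored 12.7 over 135.5 kb, Olig2 11.4, the progenitor receptor Pdgfra 10.04 over 177.8 kb, and Fgfr3 of astrocytes 9.95. Opalin (2.04), Ermn (2.23), S100b (2.40), Slc1a2 (2.83) and Pecam1 (2.98) scored under the 3.59 of all listed genes, and Slc1a2 had H3K27ac and Pol II. The complement genes C1qa, C1qb and C1qc shared 80 kb at 7.28. Some glial genes lacked a region, among them Mog of oligodendrocytes, and P2ry12 and Csf1r of microglia. Mbp, Cnp, Slc4a4 and the microglial Cd68 lacked one too and had H3K27ac and Pol II.

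Genes of striatal interneurons were listed for 14 of 15 (93.3%), with scores from 2.25 to 12.8 and a median of 6.87. Chat and Slc18a3 of cholinergic interneurons scored 12.8, and the factors Nkx2-1, Lhx6 and Lhx8 scored 12.7, 11.4 and 10.4. The peptide gene Sst scored 9.22 over 185.3 kb, Npy 6.36, Pvalb 6.77 and Calb2 6.98, and Th, at 4.96, had no H3K4me3. Htr3a (4.91), Slc5a7 (4.81) and Cck (4.64) were lower, and Vip, at 2.25 over 6.9 kb, lay near the floor. Of the 14 genes, 11 had H3K4me3 and 1, Cck, had H3K27ac, against 57.0% and 24.4% of all genes with H3K27me3. Of all 15 members 1 had H3K27ac, against 51.5% of all coding genes. Nos1, a marker of other interneurons, was listed under none of the 4 antibodies.

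Genes that tell direct-pathway from indirect-pathway medium spiny neurons combined H3K27me3 with the active marks. H3K27me3 was listed for 13 of 14, against 42.5% of all coding genes, with a median score of 4.95 and a median width of 50.2 kb. Of these 13, 12 also had H3K27ac and 11 Pol II, against 24.4% and 15.1% of all genes with H3K27me3. The dopamine receptor genes Drd1 (3.77, 38.7 kb) and Drd2 (4.53, 54.2 kb) both had all 4 marks. So had the direct-pathway genes Tac1 (5.09) and Chrm4 (3.17) and the indirect-pathway genes Penk (4.58), Adora2a (5.89, 94.5 kb), Gpr6 (5.07, 124.9 kb) and Sp9 (7.48). Pdyn (4.55) had H3K27me3 and H3K4me3 without H3K27ac or Pol II, and Gpr52 alone had no H3K27me3. The labels do not separate the pathways, so marks on the same nuclei and marks on nuclei of different pathways cannot be told apart. Among genes shared by both pathways, Ebf1 (6.68, 77.3 kb), Six3 and Zfp503 (3.87, 103.4 kb) had all 4 marks, and Foxp2, Gnal and Slc32a1 had narrow regions of 4.7 to 6.2 kb at scores of 2.11 to 2.72.

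Neurotransmitter receptor and channel genes were listed at shares near or above the 42.5% of all coding genes. Ionotropic glutamate receptors were listed for 8 of 18 (44.4%, interval 21.5 to 69.2%). Grin2c (9.79) and Grin2d (8.04) led, Grin1 scored 2.25 over 3.8 kb, and Grin2a, Grin2b, Gria2 and Gria3 had none. Cys-loop receptors were listed for 21 of 42 (50%, interval 34.2 to 65.8%), led by the muscle nicotinic subunits Chrnd and Chrng (7.88) and the ganglionic subunits Chrna3 and Chrnb4 (6.82), and Gabra2, Gabra4, Gabrb2 and Gabrg3 were among those with none. Potassium channels were listed for 46 of 92 (50%, interval 39.4 to 60.6%). Kcnc1 (10.99), Kcnj6 (10.6, 318.3 kb) and Kcnj1 (10.2, 301.3 kb) led, and Kcnj4, Kcna1 and Kcnq3 had none. Kcnc1 also had H3K27ac and Pol II, and Kcnj6 had H3K27ac. Kcnj1 shared its region with other genes and had no H3K4me3 of its own. Amine receptors were listed for 22 of 35 (62.9%, interval 44.9 to 78.5%), led by Drd5 (11.1) and Adra1d (9.89), while Chrm1, Htr1b and Htr6 had none.

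Genes of the Polycomb machinery were listed at 9.09% for PRC2 (interval 0.23 to 41.3%) and 26.3% for PRC1 (9.15 to 51.2%), against 42.5% of all coding genes. Of 11 PRC2 genes only Ezh1 was listed, at 5.58 over 9.2 kb, and Ezh2, Eed, Suz12, Jarid2 and Aebp2 were not. Of 19 PRC1 genes 5 were listed, among them Pcgf1 (11.5), Pcgf3 (5.45) and Cbx2 (3.36). All 5 had H3K27ac and Pol II as well, against 24.4% and 15.1% of all genes with H3K27me3. Of all 19 PRC1 genes, listed or not, 17 had H3K27ac and 16 had Pol II. None of the 3 H3K27 demethylase genes, Kdm6a, Kdm6b and Uty, was listed.

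Ribosomal protein and oxidative phosphorylation genes were listed less often than the 42.5% of all coding genes, and several housekeeping genes shared a domain with a tissue-specific gene. Ribosomal protein genes were listed for 12 of 80 (15.0%), oxidative phosphorylation genes for 18 of 86 (20.9%) and proteasome genes for 13 of 39 (33.3%, interval 19.1 to 50.2%, which includes the background). Cox6b1 shared 12.8 kb with the vascular and blood factor gene Etv2 at 11.96. Ndufa8 shared 65.2 kb with Lhx6 at 11.4, and Rpl28 shared 36.7 kb with Il11 and the testis isoform gene Cox6b2 at 9.01. Psmb8 and Psmb9, subunits of the immunoproteasome, lay with Tap1 and Tap2 under 54.9 kb at 6.36. Rplp2, Rpl34 and Psmc4, by contrast, scored 6.49, 5.67 and 6.07 with no such factor in their regions. In the upper 50% of regions by score, proteasome genes stood at 5.73 percentage points from the background in place of -9.12.

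MicroRNA genes were listed under both extremes of score. In all, 157 microRNA genes lay in 92 regions, and 145 had a mature sequence in RefSeq. Their share of all microRNA genes is not given. Of the 92 regions 49 overlapped H3K4me3, near the 52.3% of all H3K27me3 regions. Mir10a, Mir10b, Mir196a-1, Mir196a-2, Mir196b and Mir615 took the scores of their Hox domains, 13.3 to 14.1. The sensory cluster of Mir96, Mir182 and Mir183 scored 11.4 over 52.4 kb with H3K4me3. Mir200a, Mir200b and Mir429, whose sequences are shown above, scored 8.36 over 28.0 kb without it. In contrast, 44 microRNA genes of the imprinted Dlk1 to Dio3 interval of chromosome 12 lay in 5 regions that scored 2.11 to 3.79. The region with most symbols (chr12:110962801-110983100) listed 22 symbols in 20.3 kb at 2.21. The protein-coding genes at the ends of the interval were high, Dlk1 at 8.01 over 34.8 kb and Dio3, a thyroid hormone deiodinase gene, at 11.9 over 99.6 kb.

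Of 31 imprinted genes, Dio3 included, 18 were listed (58.1%, interval 39.1 to 75.5%, against 42.5% of all coding genes), with a median score of 6.52. Igf2 shared 139.4 kb with Ins2 and H19 at 10.5. Cdkn1c, Phlda2 and Slc22a18 shared 119.3 kb at 9.88, and Gnas scored 9.58 over 148.8 kb. Ube3a, Nnat, Igf2r and Snrpn had none and had H3K27ac.

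Chromosome X had a lower share of listed genes than each autosome, and few genes of chromosome Y were listed. On chromosome X 197 of 905 coding genes were listed (21.8%, interval 19.1 to 24.6%), against 33.5% on chromosome 12 and 49.2% on chromosome 6, the lowest and highest autosomes. H3K4me3 was listed for 52.2% of X genes against 68.4% of all. The 215 regions on X had a median width of 7.0 kb against 12.6 kb on autosomes, and 1 of them exceeded 100 kb. Among the strongest were those of the melatonin receptor relative Gpr50 (12.8, 31.9 kb), Irs4 (10.9) and Esx1 (10.6). On chromosome Y 6 of 78 genes were listed (7.69%), Kdm5d (4.83), Ddx3y (4.35), Uba1y, Zfy1, Sry and Usp9y. H3K4me3 was also listed for 7.69% of Y genes.

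The weakest entries were narrow and mixed in kind. Regions listed for Csad, Dsc1, Trim38, Gpr179 and Olfr1115 scored between 2.0002 and 2.0015 over 2.5 to 4.6 kb, and Trim38 (3.05) and Gpr179 (5.62) each had a higher region elsewhere. Among the narrowest, the 2.5 kb regions of Khk and Cdk8 overlapped H3K4me3 over 20% and 12% of their width. They overlapped H3K27ac over 12% and 8%. The 2.5 kb region of Ablim1 overlapped H3K4me3 over 4%. Such entries touch the floor of the list, and 33 regions were listed with the same transcript at 2 scores, of which the higher was kept. The gap was largest for Irs4 (10.9 and 2.47) and Ptgdr (8.10 and 2.27), so the place of those genes depends on that choice.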

How the data were processed

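The 4 chromatin immunoprecipitation libraries and the input library of nuclei labelled as striatal medium spiny neurons were grouped by the antibody in the labels. The authors deposited 1 list of regions over input per antibody, whose score column holds their own score per region. The tool that made it is not given in the sources used here, nor is its scale. Bowtie 0.12.7, MACS 1.4 and build mm9 are named per the submitters' processing notes, with no role or order. Per the names of the deposited lists, regions lie within 3 kb of a transcript start. Scores ranked or filtered regions within 1 list only. Depth is unknown, and it could change how many regions a list holds.

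Lines were reduced to distinct regions by position. Of the H3K27me3 lines 97.4% matched by accession to a RefSeq gene table (GRCm38.p6, used for names), the others by symbol, and 0.669% did not match. Another 0.246% of lines carried no symbol. A region listed with several scores kept the highest, and a gene took its highest score and its greatest width. Regions sharing 1 bp or more counted as overlapping. The background was 21031 protein-coding genes with a curated transcript, and genes with no line counted as unmarked. Promoter CpG was computed for sets with entries for at least 80% of genes. Intervals are exact (Clopper-Pearson, 95%), and overlap, merging and interval code was tested on simulated data. The work used scipy 1.17.1 and pandas 2.3.3 with numpy 2.4.6 under Python 3.11.15, and matplotlib 3.10.9 for plots.

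Named genes are those of the 30 highest-scoring, 20 widest, 6 narrowest and 6 lowest-scoring regions, of the 10 regions with most symbols, the 10 genes with most regions, and the 10 highest-scoring and 10 widest regions without H3K4me3. The 10 highest-scoring regions with H3K27ac or with Pol II were added. Of each gene list up to 6 members with the highest H3K27me3 score and up to 6 without H3K27me3 were named, or all of lists of 16 or fewer. Names outside this rule, such as regions of microRNAs, housekeeping genes and the sex chromosomes, were chosen after their values were seen. The members and gene lists were chosen with earlier results of these data known. The alternatives covered the score and width minimum, merging, the overlap rule, list length, the gene background and the promoter set. Some genes that this rule names are not reported here.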

Additional observations from a re-analysis of the deposited data

How the results depend on the processing

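No paired analysis was possible because each antibody has 1 library, and leaving out a replicate was not possible for the same reason. With the upper 50% of regions by score, the list held 4109 regions and 5265 coding genes with a median width of 25.8 kb and 61.1% over 20 kb (main values 8219, 8929, 12.4 kb and 33.9%). With a score of at least 3 these were 4706, 5874, 23.3 kb and 56.2%. Merging within 10 kb gave 15.6 kb and 42.2%, and a width of at least 5 kb gave 15.3 kb and 39.8%. Counting protein-coding genes only, 84.6% of regions held 1 gene. With 0.5 of the narrower region shared, overlap was 37.4% for H3K4me3, 7.26% for H3K27ac and 3.08% for Pol II. The gap between the highest and lowest decile was then 81.9 points for H3K4me3. With the upper 50% of every list, overlap was 15.97, 4.99 and 3.31%, and that gap was 8.02 points for H3K4me3, -0.00533 for H3K27ac (3.39 in the main setting) and 1.21 for Pol II. With the same number of regions per list, overlap was 18.8% for H3K4me3 and 12.5% for H3K27ac, and the H3K4me3 gap was 12.4 points. The share of Pol II regions without H3K27ac in the highest decile, less that in the others, was 37.4 points, 49.3 with 0.5 shared and 5.98 with the upper 50%, settings added after the data were seen. The difference in median CpG ratio between genes with H3K27me3 alone and H3K4me3 alone was -0.622, and -0.608 with the upper 50%. Without chemosensory genes the difference was not computed, since 79.2% of genes with H3K27me3 alone then had a promoter entry, under the 80% minimum. Genes with H3K4me3 alone then had a median of 0.797, and those with H3K27me3 alone in the upper 50% by score 0.204. Of 50 gene lists, 43 stayed within their interval when the background was genes named in any list, and ionotropic glutamate receptors turned to -4.50 points. With the upper 50%, 24 stayed, and 4 reversed: vomeronasal receptors to -9.82, taste and trace amine receptors to -15.6, proteasome to 5.73 and PRC1 genes to 1.28 points. The cause of these changes was not tested. Unknown depth limits every count of regions.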

Other observations

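Protocadherin genes and numbered zinc finger genes showed a further pair of patterns among clustered families. Protocadherins, adhesion proteins of neuronal identity, had an H3K27me3 region at 40 of 69 genes (58.0%) with a median score of 4.197. Pcdh8 led at 11.4 over 9.1 kb. Pcdhga1, Pcdhga2, Pcdhga3, Pcdhga4 and Pcdhgb1, at the start of the gamma cluster, shared 42.6 kb at 8.92, while Pcdhgc4 and Pcdhgc5 at its end had no H3K27me3 and had H3K27ac and Pol II. The 40 listed genes lay in 20 regions. Of these genes 39 had H3K4me3, and 1 had H3K27ac, against 57.0% and 24.4% of all genes with H3K27me3. Of all 69 protocadherins 68 had H3K4me3 and 12 had H3K27ac, against 68.4% and 51.5% of all coding genes. Numbered zinc finger genes had a region at 111 of 365 (30.4%, interval 25.7 to 35.4%), below the 42.5% of all coding genes. Of the 111 listed members 72 had H3K27ac, against 24.4% of all genes with H3K27me3. Of all 365 members 264 had it, against 51.5% of all coding genes. Zfp13 (10.006), Zfp879 (8.56), Zfp423 (8.20, 248.6 kb), Zfp551 (8.02), Zfp606 (8.02) and Zfp536 (8.02, 252.9 kb) led them.

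Of 15 Pou genes 7 were listed (46.7%, interval 21.3 to 73.4%), near the 42.5% of all coding genes. Pou4f2 (13.5), Pou4f1 (11.6) and Pou4f3 (9.50), factors of sensory neurons, were high, and Pou3f2 (3.45) and Pou3f1 (2.11) were low with H3K27ac and Pol II. Pou3f3 and Pou3f4 had no H3K27me3 and had both of those marks.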
